A study of Mus musculus with 2 samples.

Results

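A set of 8 Wnt ligand genes was examined in a comparison of sorted cells from the closing mouse neural tube: Wnt6, Wnt10a, Wnt3, Wnt9b, Wnt4, Wnt7b, Wnt1 and Wnt10b. They were chosen by position, as the rows of the authors' deposited table whose mm9 locus overlaps a window around each gene, and 16 of the table's 55418 transcript rows met this rule. Of the 16 rows, 8 were tested by the authors, out of 29405 tested rows in all. All embryos came from mTmG mice crossed with Grhl3-cre mice, both on a C57BL/6 background, at embryonic day 9.5 and 21 to 25 somites. In these animals a membrane reporter turns from red to green wherever the Grhl3-driven Cre has been active, so the green cells mark the Grhl3 lineage of the non-neural ectoderm and the red cells are the rest of the dissected neural tube. RNA of 25 embryos was pooled and each of the GFP-positive and RFP-positive pools gave 1 library. No replicate stands behind any value.

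Wnt proteins are secreted, lipid-modified glycoproteins that bind Frizzled receptors and their co-receptors on nearby cells. In the canonical branch this stabilises beta-catenin, which acts on target genes together with TCF/LEF factors. In the vertebrate embryo Wnt1 is a classical marker of the dorsal midline of the neural tube, Wnt6 is known from the surface ectoderm, and Wnt ligands of the ectoderm and dorsal neural tube are known for their part in neural crest formation.

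Conditions of the authors' deposited table are named only q1 and q2, and no label ties either name to the GFP-positive or the RFP-positive pool. Which pool is which condition was not inferred from expression values. Directions are those of the deposited fold change of q2 against q1, so that a negative value is read as lower in q2. The deposited test statistic had the opposite sign in all 9 member rows with a finite fold change other than 0. This was not particular to the members. Row uc007bcv.2, outside the set, had a log2 fold change of 1.48 and a statistic of -4.55. The abundance columns of the 2 conditions were not used for the same reason, so levels are not given. The labelled cell types were not checked against marker genes here, since the table carries no gene symbols and mm9 positions of markers were not among the sources used.

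Gene names therefore rest on position, and the match was checked by the size and spacing of the loci, which can be compared across builds without converting coordinates. Wnt3 and Wnt1 spanned 43847 and 3974 bases in the table, the same lengths as in RefSeq on GRCm38. Wnt10a differed from RefSeq by 1 base (12157 against 12158), Wnt9b from GENCODE M21 by 1 base (22459 against 22458) and Wnt6 from GENCODE M21 by 3 bases (13428 against 13431). For each gene the nearer of RefSeq and GENCODE M21 was taken. RefSeq lists far longer spans for Wnt9b (47911 bases) and Wnt6 (30981 bases), which do not match the loci here. The gap between Wnt10b and Wnt1 was 11706 bases, the same as in GENCODE M21. Between Wnt9b and Wnt3 it was 24353 bases, the same as from the GENCODE M21 end of Wnt9b to the RefSeq start of Wnt3. Between Wnt6 and Wnt10a it was 6699 bases, against 6696 from the GENCODE M21 end of Wnt6 to the RefSeq start of Wnt10a. For each gap the nearest combination of the annotations was taken. Wnt10b (6399 against 7439 bases) and Wnt4 (19145 against 21867 bases) were shorter in the table than in the nearer later gene model. The Wnt7b locus of 58272 bases was longer than the 47037 bases of Wnt7b alone, and equalled the joint span of Wnt7b and the antisense gene AU022754, which overlap by 2222 bases. Its 5 rows can thus belong to either gene.

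The 250 bases upstream of the start sites of 2 members are shown, since the comparison turned most on Wnt6, the one member called different, and Wnt1 was the member with the smallest error among those not called. Sequences are from RefSeq on GRCm38.p6, on the plus strand, at chr1:74771642-74771891 for Wnt6 and chr15:98789607-98789856 for Wnt1, and capitals mark a match to the AP-2 motif described next.
Wnt6: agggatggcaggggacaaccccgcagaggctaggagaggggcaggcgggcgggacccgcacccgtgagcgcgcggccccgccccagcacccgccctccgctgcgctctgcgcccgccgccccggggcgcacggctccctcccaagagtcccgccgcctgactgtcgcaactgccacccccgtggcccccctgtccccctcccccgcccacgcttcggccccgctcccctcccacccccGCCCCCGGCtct
Wnt1: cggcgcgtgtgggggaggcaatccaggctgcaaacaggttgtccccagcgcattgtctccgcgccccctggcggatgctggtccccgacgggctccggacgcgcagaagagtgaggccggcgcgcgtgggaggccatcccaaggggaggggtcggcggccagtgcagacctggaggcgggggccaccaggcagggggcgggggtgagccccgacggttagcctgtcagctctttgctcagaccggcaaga

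Both strands of these windows were searched for 3 motifs of factors known from the ectoderm or the Wnt pathway, in the 6 members that the RefSeq promoter table lists (Wnt6, Wnt4, Wnt9b, Wnt3, Wnt10b and Wnt1). The Grainyhead motif AACCGGTT, bound by the family to which Grhl3 belongs, was in 0 of the 6 windows and in 0.116% of 32851 windows of all promoters. The TCF/LEF motif CTTTGAT was in 0 of the 6 and in 3.21% of all. The AP-2 motif GCCNNNGGC was in 4 of the 6 (Wnt6, Wnt4, Wnt3 and Wnt10b) and in 13.7% of all. In Wnt6 the match GCCCCCGGC lay 12 to 4 bases before the start site. The GC content of the window was 79.6% in Wnt6, 71.6% in Wnt1 and 66.8% to 85.2% over the 6 windows, against a median of 52.4% over all, and its part in the AP-2 matches was not tested. A match describes letters in a window and not a bound site.

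Wnt6 was the only one of the 8 genes called different, and by its deposited fold change it was lower in condition q2. The authors' deposited table gave its single transcript, uc007bne.1 at 74818465 to 74831893 of chromosome 1 (mm9), a log2 fold change of -2.03. This is a 4.09-fold difference. Its error, taken as the size of the fold change over the size of the deposited test statistic, was 0.56, and the 95% interval ran from -3.13 to -0.93, or from 1.91-fold to 8.75-fold. The q-value in the authors' deposited table was 0.0379. Because this p-value compares 2 libraries, the error rests on the authors' model and on no replicate measure of the spread between embryos or sorts. What that model covers is not stated. GENCODE M21 lists an antisense gene, Gm29539, within Wnt6, and counting by strand is not stated, so reads of the pair cannot be told apart.

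This call made 1 of 8 tested Wnt ligand rows, or 12.5%, while 0.803% of all tested rows were called. Of the 8 rows, 3 lie at the Wnt7b locus and can belong to AU022754. The members were chosen with earlier results of these data known, so the 2 shares do not show an excess of calls. In the negative direction the call was again 1 of 8, against 0.112% of all tested rows, or 33 calls. Calls were more frequent at loci with 1 row, such as that of Wnt6, where 21 of 4207 tested rows were called negative. Wnt6 stood near the weak end of the 33 negative calls over all tested rows. Among the 29 with a finite value it ranked 23 by size, with 6 smaller, and their median log2 fold change was -2.38. By q-value it ranked 28 among the same 29 finite negative calls. The Wnt6 value lay at or above 1.68% of all 28140 tested finite fold changes.

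**Figure D1:**
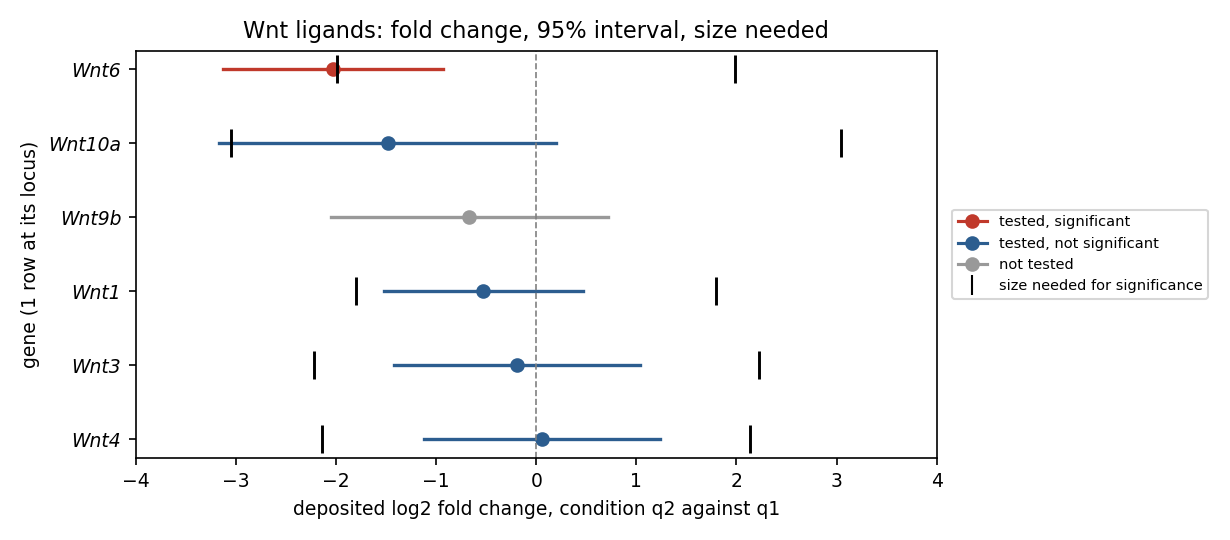
Log2 fold change of condition q2 against q1 (x axis) of the 6 Wnt ligands whose locus holds 1 row (y axis). Points are the deposited values and lines are 95% intervals from the deposited test statistic. Black ticks mark the size each tested gene would have needed for significance if its error stayed the same. Wnt6, at -2.03, lies just beyond its tick at 1.99, and the other 4 tested genes lie inside theirs.

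Wnt10a, the gene next to Wnt6 and a ligand known from skin appendages and teeth, had the next most negative value with a usable error. The authors' deposited table gave it a value of -1.48 on the log2 scale, or 2.80-fold, and an unadjusted p of 0.0841 and a q-value of 1.00. Its error of 0.86 was the widest among the 6 genes with 1 row per locus, and its 95% interval ran from -3.17 to 0.20. A 2.80-fold lower value in q2 was therefore not distinguishable from no difference. Set side by side, the difference of Wnt6 minus Wnt10a was -0.55 log2 units with an error of 1.03, and the 2 genes were not separated.

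Wnt1, which encodes the founding ligand of the family, had a log2 fold change of -0.53 in the authors' deposited table, with an error of 0.51 and an interval from -1.52 to 0.46. Wnt3, a canonical ligand needed for gastrulation, was at -0.19 in the authors' deposited table, with an interval from -1.42 to 1.04. For Wnt4, known from kidney and gonad development, the authors' deposited table gave 0.06 with an interval from -1.12 to 1.24. None of the 3 passed the test, and their deposited q-values were all 1.00. All 3 intervals included 0, and they left room for differences of up to 2.87-fold for Wnt1, 2.67-fold for Wnt3 and 2.36-fold for Wnt4.

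Precision set how large a difference had to be. The smallest test statistic called, among all rows with a finite fold change, was 3.54 in size. At their own errors Wnt1 would have needed a 3.47-fold difference to reach it, Wnt6 3.97-fold, Wnt4 4.40-fold, Wnt3 4.66-fold and Wnt10a 8.27-fold. The observed 4.09-fold of Wnt6 was thus only slightly beyond what was needed. With errors held at these values, the same fold would not have been called in Wnt10a, Wnt3 or Wnt4. Whether a gene's error would stay the same at another fold change was not tested. Errors of the 6 genes with 1 row per locus ran from 0.51 to 0.86, above the median of 0.44 over 4181 tested transcripts at such loci, whose quartiles were 0.35 and 0.58.

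Ordered by fold change, the 6 genes with 1 row per locus were Wnt6, Wnt10a, Wnt9b, Wnt1, Wnt3 and Wnt4, from the most negative to the slightly positive. No 2 neighbours in this order were separated by their errors. Of the 15 pairs, 3 had a 95% interval of the difference that left out 0. Wnt6 minus Wnt4 was -2.09 log2 units, with an interval from -3.70 to -0.47, and Wnt6 minus Wnt3 was -1.84, with an interval from -3.49 to -0.19. For Wnt6 minus Wnt1 the interval ran from -2.98 to -0.02. With intervals widened to cover all 15 pairs, 0 left out 0. These intervals treat the errors of different genes as independent, although all genes share the same libraries, and Wnt6 was the extreme value of the set.

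**Figure D2:**
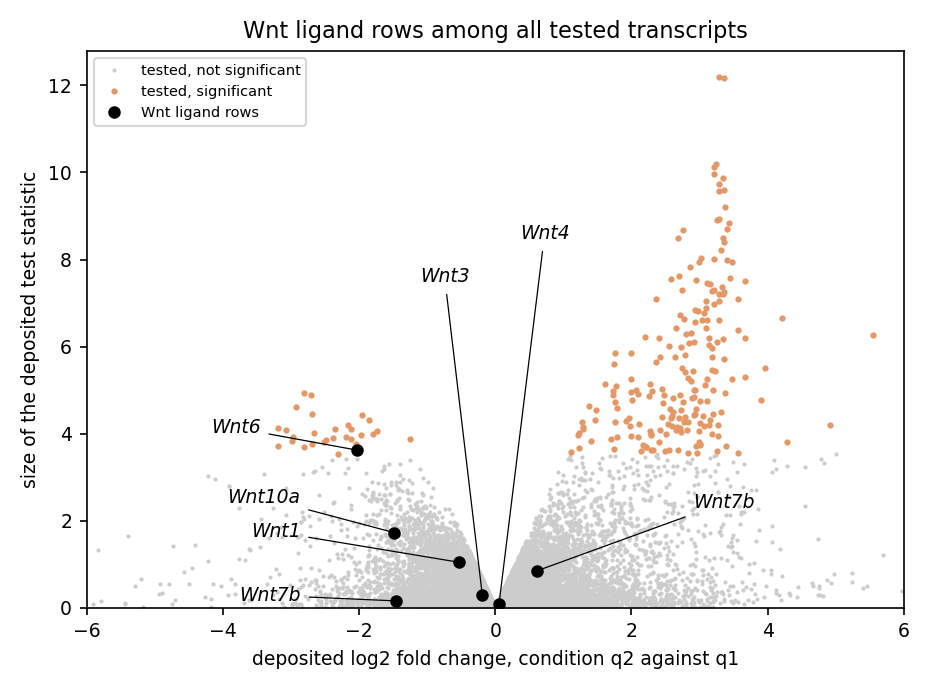
Each point is a tested transcript with a finite value, by log2 fold change of q2 against q1 (x axis) and by the size of the deposited test statistic (y axis). Black points are the 7 such Wnt ligand rows, of which Wnt6 alone lies among the significant transcripts, and 399 transcripts beyond 6 log2 units on either side, with 0 calls, are not drawn.

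Over the 7 tested finite rows of the Wnt ligands, 5 were negative and 2 positive, with a median log2 fold change of -0.53. Only the interval of Wnt6 excluded no change. The negative count includes the Wnt7b row uc007xde.2, at -1.46 with an error of 9.16. The Wnt7b rows can also belong to the antisense gene at that locus. The signs therefore do not show a shared negative direction of these ligands. Among all tested finite rows the median was 0.0046 and 49.5% were negative. Limited to loci with 1 row, the 5 tested Wnt ligands had the same median of -0.53, against -0.02 over the 4181 transcripts of that kind, of which 53.6% were negative. At such loci 2.54% of tested transcripts were called, compared with 1 of these 5.

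Among the 8 genes, 3 pairs are neighbours on their chromosomes, an arrangement shared by many vertebrates. Wnt6 and Wnt10a lie in the same orientation, 6699 bases apart in the table, and both had negative values (-2.03 and -1.48). Wnt9b and Wnt3 point away from each other. Wnt9b, a ligand known from kidney and face development, had a log2 fold change of -0.67 in the authors' deposited table but was marked as not tested. Its interval from -2.05 to 0.72 overlapped that of Wnt3 widely, and the difference of Wnt9b minus Wnt3 was -0.48 with an error of 0.94. Wnt10b and Wnt1 also point away from each other, and no fold change of Wnt10b could be set beside the -0.53 of Wnt1.

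**Figure D3:**
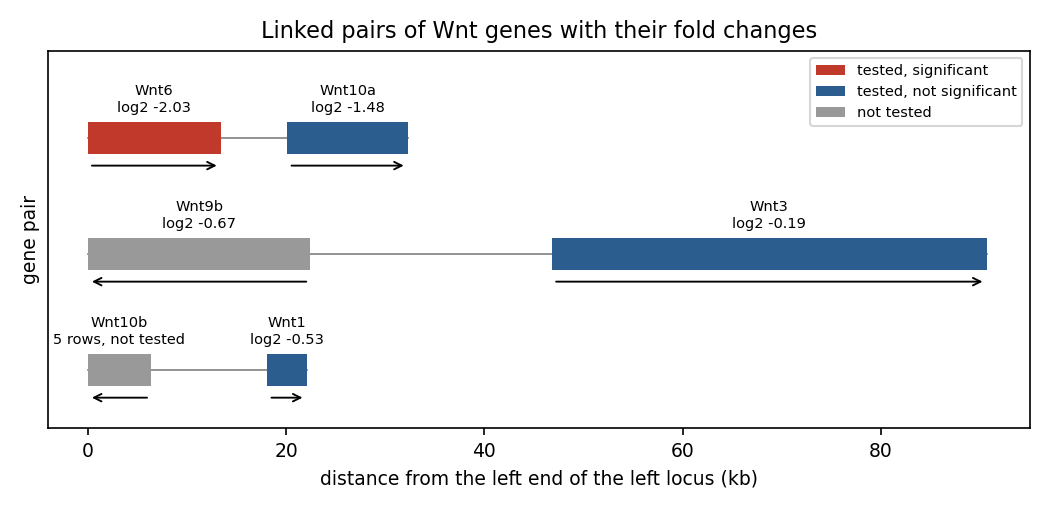
Loci of the 3 pairs of neighbouring Wnt genes, to scale, by distance in kb from the left end of the left locus (x axis), with 1 pair per line (y axis). Arrows give the direction of transcription from GENCODE M21, colours the test status, and labels the deposited log2 fold change of q2 against q1, from -2.03 at Wnt6 to -0.19 at Wnt3, while the 5 rows of Wnt10b were not tested.

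Wnt10b, a canonical ligand known from the mammary gland and bone, was spread over 5 rows at 1 locus, 98602182 to 98608581 of chromosome 15 (mm9), and none was tested. Of these rows, 2 were positive ratios against 0 in the authors' deposited table, 2 were negative ratios against 0 and 1 was listed at no change. One positive and one negative row had unadjusted p-values of 0.0198 and 0.0178 in the authors' deposited table, with q-values of 1.00 for both. Rows of one gene thus pointed in opposite directions, and the gene as a whole has no usable direction.

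Wnt7b, a ligand known from lung and placenta development, was the other member with several rows, and 3 of its 5 were tested. The tested row uc007xdf.2 had a log2 fold change of 0.61 in the authors' deposited table, with an interval from -0.80 to 2.02. For uc007xde.2 the authors' deposited table gave -1.46, but its error of 9.16 leaves the value without a direction. The third tested row, uc007xdg.2, was a negative ratio against 0 with an unadjusted p of 0.0997 in the authors' deposited table. None of the 3 was called, and their deposited q-values were 1.00. Errors over 5 log2 units were found for 17.9% of tested finite rows at loci with several rows, whose median error was 1.13. Which of the Wnt7b rows are transcripts of AU022754 was not tested.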

How the data were processed

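RNA of the GFP-positive and RFP-positive pools was sequenced from TruSeq libraries made with 1 µg of total RNA, per the labels. TopHat 1.3.2, Cufflinks 2.0.2, Cuffdiff and the build mm9 are named in the submitters' processing notes. For the annotation and Cuffdiff's settings, nothing is given in the sources used here. The authors deposited 1 Cuffdiff table with a log2 fold change per transcript, a test statistic (a score, also as the authors deposited it) and the authors' deposited p-value and q-value. Ratios against 0 appear there as placeholder numbers of extreme size. The 2 columns of abundance were not used, because q1 and q2 match no label, and depth is unknown from the other columns.

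Members and lists were chosen with earlier results of these data known. All 8 genes were named, with every row at their windows. The other genes of the Wnt pathway (carriers, receptors, inhibitors and targets) were planned but not analysed here. The plan required names from the file or from a reference of its build, the table pairs 0 rows with a symbol, and the windows used covered the 8 ligands alone. Calls are the rows that the table marks significant, at a q-value limit of 0.05. Errors were the size of the log2 fold change over that of the test statistic, and 95% intervals used 1.96 errors. No p-value was computed across samples. Benjamini-Hochberg adjustment and the window overlap were tested on simulated data. Coordinates of loci are mm9 as the file gives them. Promoters and gene lengths came from RefSeq and GENCODE M21 on GRCm38. Tables were handled in pandas 2.3.3 and numpy 2.4.6 under Python 3.11.15, with scipy 1.17.1, and plots were drawn in matplotlib 3.10.9.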

Additional observations from a re-analysis of the deposited data

How the results depend on the processing

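The call of Wnt6 depended on how q-values were set. At a q-value of at most 0.01 the Wnt ligands had 0 calls, and with the deposited p-values adjusted over all rows by the Benjamini-Hochberg method they had 0, since the q-value of Wnt6 became 0.0714 in place of 0.0379. At a q-value of at most 0.1 and at loci with 1 row the count was 1 call, as in the deposited table. Neither setting could remove this call, since the deposited q-value of Wnt6 is below 0.1 and its locus holds 1 row. Over all rows, calls numbered 236 as deposited, 184 and 279 at the stricter and looser limits, 215 after adjustment over all rows and 107 at loci with 1 row, a setting chosen after seeing the data. Centring on the median of all tested rows left the median of the Wnt ligands at -0.53 and moved Wnt6 from -2.03 to -2.04. That median was 0.0046, so centring could hardly move any value. Requiring rows to lie within their window widened by 5000 bases dropped the Wnt7b rows, left 5 tested finite rows and kept the median at -0.53. The dropped values of -1.46 and 0.61 lay on either side of this median, so it could not move. With 1 library per pool no library could be left out. No paired analysis was possible because each pool had 1 library and the conditions matched no label.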

Other observations

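Within 200000 bases of Wnt6, 21 other rows were tested, Wnt10a aside, and 0 were called. Their finite log2 fold changes in the authors' deposited table ran from -1.34 to 1.05 with a median of -0.05. Near Wnt4 the 7 other tested rows lay between -0.39 and 0.12, and 0 were called. Near Wnt3 the 8 other tested rows lay between -0.23 and 1.63, with 0 calls. Near Wnt1, 1 of 26 other tested rows was called, and the values there ran from -0.95 to 2.91 in the authors' deposited table. These neighbours carry no names in the table. Over all tested rows 0.803% were called, so counts of 0 among so few rows do not show that a call stands alone in its region.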
